A study of Drosophila melanogaster with 2 samples.

Results

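The genes described here are 42 genes of the cell cycle and of DNA replication, out of 17737 genes in the count matrices of single-cell RNA sequencing of the adult *Drosophila melanogaster* intestine. They were listed by name and role and not by a cut on measured values, but with earlier results of these data known. All 42 were found by their symbols in the matrices. They fall into 6 groups by role, which hold 5 mitotic cyclin, Cdk1, and string genes, 5 genes of mitotic kinases and the chromosomal passenger complex, 6 genes of the spindle checkpoint and anaphase, 8 genes of G1 and S phase entry, 11 genes of DNA replication, and 7 genes of chromosome condensation and cytokinesis. By FlyBase identifier, all 42 matched protein-coding genes of the BDGP6.54 annotation, with 11 on chromosome arm 2L, 14 on 2R, 5 on 3L, 7 on 3R, and 5 on X. The genome build behind the counts is not given in the sources used here.

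The study asked what blocking the immune deficiency (IMD) pathway in progenitors does to the cells of the gut. In *esg[ts]/D30A* flies (w; esgGal4, tubGAL80[ts], UASGFP/+; UAS-ImdD30A/+), *esg*-GAL4 drove the ImdD30A transgene, an IMD inhibitor, in intestinal progenitors. *esg[ts]/+* flies (w; esgGal4, tubGAL80[ts], UASGFP/+; +/+) carried the same driver, the temperature-sensitive GAL80, and GFP, without the inhibitor. Flies were raised at 18 °C and kept as adults for 10 days at 29 °C, which inactivates GAL80. There was 1 library per genotype, each from 27 pooled guts of virgin females dissociated with elastase at 1 mg/ml, so that genotype and library cannot be told apart and no test of a genotype difference was possible. The intervals given here are 95% intervals for counting error only.

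In the adult midgut, intestinal stem cells divide to renew the epithelium, and they carry the Notch ligand Delta (*Dl*) on their surface. Their daughters become enteroblasts, which respond to Notch and mature into digestive enterocytes, or enteroendocrine cells that release peptide hormones. Enterocytes enlarge by rounds of DNA replication without mitosis, the endocycle, so replication genes are not a mark of division alone. Cyclins with their kinases drive entry into S phase and mitosis, MCM proteins unwind DNA for replication, and Polo and Aurora kinases with the passenger complex direct spindle assembly and chromosome segregation.

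The *esg[ts]/D30A* library held 6322 barcodes with 53275921 unique molecular identifiers (UMIs, 1 per captured transcript), and the *esg[ts]/+* library held 4242 barcodes with 30383272 UMIs. Over 25% of the UMIs were mitochondrial in 2019 of the *esg[ts]/D30A* barcodes and in 144 of the *esg[ts]/+* ones, and these were left out. Whether this difference between the libraries bears on the genotype ratios was not tested. After filtering, 4153 cells with a median of 1691 UMIs remained in *esg[ts]/D30A*, and 3964 cells with a median of 1234 UMIs in *esg[ts]/+*. Both libraries held the same sequence for 132 barcodes, of which 127 were kept. The copy in 1 library was over 100 times as deep as its copy in the other library for 119 of these 132, with the deeper copy in *esg[ts]/D30A* for 95 and in *esg[ts]/+* for 37. Progenitor-like cells included 0 such barcodes in *esg[ts]/D30A* and 15 in *esg[ts]/+*, an unnamed cluster, number 9, had 18 in *esg[ts]/D30A* and 9 in *esg[ts]/+*, and enterocyte-like cells had 73 in each library, so values that rest on them are also given without them. The *imd* gene itself had 69 UMIs (12.1 CPM) in *esg[ts]/D30A* progenitor-like cells and 38 UMIs (11.1 CPM) in *esg[ts]/+* ones, where CPM scales the UMIs of a gene to the same total UMIs for every class and library. Whether the transgene's transcripts end where these counts are read is not known, so this is no check of the genotype.

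Clusters were named from marker genes. The progenitor-like class was 1 cluster with 13 progenitor markers, among them *esg*, *Dl*, and *N*, and held 337 *esg[ts]/D30A* cells and 369 *esg[ts]/+* cells. The 42 genes were left out when cells were clustered, yet *polo*, *Incenp*, and *CycA* were among the 10 leading genes of this cluster, so levels in the class against other classes are descriptions. Cells with at least 1 UMI of *Dl* were called Dl-positive. These were 191 *esg[ts]/D30A* cells (median 16821 UMIs) and 149 *esg[ts]/+* cells (median 10416 UMIs). Dl-negative cells were 146 in *esg[ts]/D30A* (median 14357 UMIs) and 220 in *esg[ts]/+* (median 8153 UMIs), and a shallow cell of either kind is more easily Dl-negative. Cluster 9 had 12 progenitor markers, but its 10 leading genes held the tracheal gene *btl* and no progenitor marker, so it is reported by number. The 7 trachea and neuron markers as a sum were not higher there. They had 50.6 CPM in *esg[ts]/D30A* and 42.4 CPM in *esg[ts]/+*, against 53.1 and 45.2 CPM in progenitor-like cells. Of these, *verm* had 0 UMIs in cluster 9 of both libraries and *trh* in that of *esg[ts]/+*. *btl* itself was higher in cluster 9, at 14.2 CPM (40.7% of cells) in *esg[ts]/D30A* and 8.48 CPM (15.6%) in *esg[ts]/+*. In progenitor-like cells *btl* had 2.64 CPM (4.15%) and 2.63 CPM (2.44%) in the same order. Cluster 9 had *esg* in 95.1% and *N* in 95.1% of its *esg[ts]/D30A* cells, and in 82.6% and 83.8% of its *esg[ts]/+* cells. It held 162 *esg[ts]/D30A* cells (median 35371 UMIs) and 167 *esg[ts]/+* cells (median 19326 UMIs). Enteroendocrine-like cells were 184 in *esg[ts]/D30A* and 174 in *esg[ts]/+*, and enterocyte-like cells were 2482 and 2497 in the same order. Within the enterocyte-like class, 1 cluster held 43 *esg[ts]/D30A* cells and 226 *esg[ts]/+* cells.

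Transcripts of the cell cycle genes made up a higher share in progenitor-like than in enterocyte-like cells, and enteroendocrine-like cells lay between them. Together the 42 genes had 816 CPM in *esg[ts]/D30A* progenitor-like cells against 210 CPM in *esg[ts]/D30A* enterocyte-like cells, a 3.88-fold difference (interval 3.73 to 4.04). In *esg[ts]/+* the sums were 618 CPM in progenitor-like and 145 CPM in enterocyte-like cells, a 4.25-fold difference (4.01 to 4.5). Enteroendocrine-like cells had 473 CPM in *esg[ts]/D30A* and 475 CPM in *esg[ts]/+*. Their G1 and S phase entry genes had 305 CPM in *esg[ts]/D30A* and 271 CPM in *esg[ts]/+*. In progenitor-like cells this group had 347 CPM and 290 CPM in the same order. All 42 genes had a higher CPM in progenitor-like than in enterocyte-like cells of *esg[ts]/D30A*, and 40 did in *esg[ts]/+*. Of 30 genes with at least 50 UMIs in the *esg[ts]/D30A* comparison, 29 were at least 1.5-fold higher in progenitor-like cells, where 42.1% of all such genes were, and 0 were lower, against 30.7%. In *esg[ts]/+*, 17 of 20 were higher, against 46.3% of all genes, and 0 were lower, against 28.4%.

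**Figure D1:**
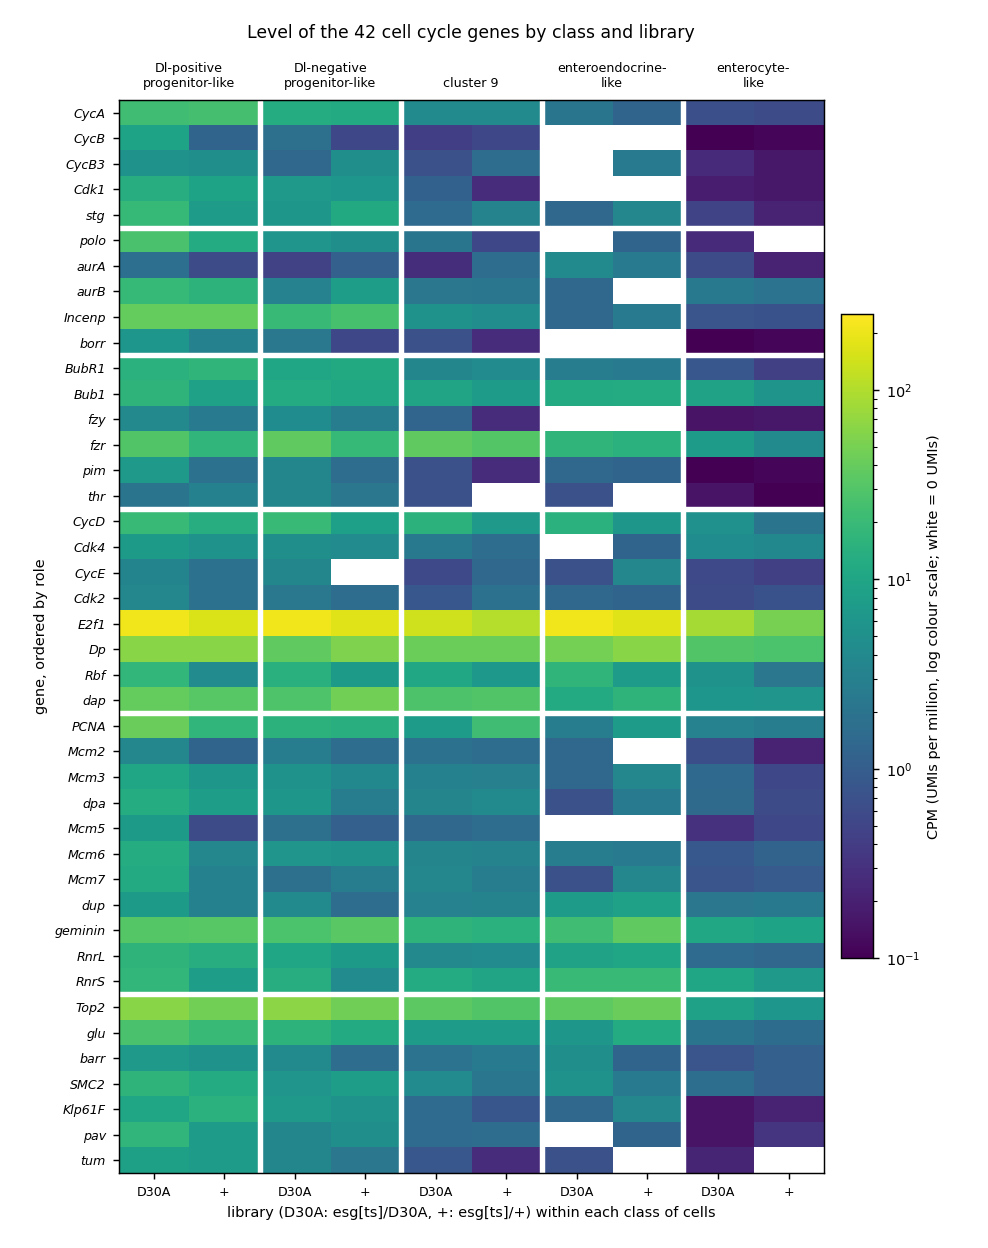
Level of each of the 42 genes (rows, ordered by role) in 5 classes of cells, with *esg[ts]/D30A* left of *esg[ts]/+* in each class, as CPM on a log colour scale with white for 0 UMIs. *polo*, *Cdk1*, and *pav* are bright in Dl-positive cells and dark or white in enterocyte-like and enteroendocrine-like cells, whereas *E2f1* and *Dp* are bright in every class.

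By summed CPM, the mitotic cyclin, Cdk1, and string group differed most between progenitor-like and enterocyte-like cells, with a log2 ratio of 5.02 in each library, and the G1 and S phase entry group least, with 1.32 (1.24 to 1.39) in *esg[ts]/D30A* and 1.64 (1.52 to 1.75) in *esg[ts]/+*. In *esg[ts]/D30A* the log2 ratio was 4.09 for the kinase and passenger group, 3.23 for condensation and cytokinesis, 2.10 for replication, and 2.02 for checkpoint and anaphase genes. In *esg[ts]/D30A*, *pav*, which encodes the kinesin of the central spindle, had 67 UMIs in progenitor-like cells and 4 in the far larger pool of enterocyte-like cells, a log2 ratio of CPM of 6.28. The corresponding log2 ratio was 6.12 for *polo*, 5.88 for the spindle motor gene *Klp61F*, 5.82 for *Cdk1*, and 5.33 for *Incenp*, the scaffold of the passenger complex. Smaller log2 ratios in *esg[ts]/D30A* were 0.50 for the cyclin D partner *Cdk4*, 0.71 for *RnrS*, a subunit of the enzyme that makes deoxyribonucleotides, 1.27 for *E2f1*, the activator of S phase genes, and 0.68 for the checkpoint kinase gene *Bub1*. Groups overlapped, with 2.45 for the Aurora B kinase gene *aurB*, 2.53 for *dap*, an inhibitor of cyclin E with Cdk2, and 3.29 for *PCNA*, the sliding clamp of DNA polymerase. *E2f1* had 2290 UMIs (87.0 CPM) in enterocyte-like cells of *esg[ts]/D30A* and 925 UMIs (50.9 CPM) in those of *esg[ts]/+*. Among genes with at least 50 UMIs in the *esg[ts]/+* comparison, *Incenp* (log2 ratio 5.48), *BubR1* (4.99), and *CycA* (4.90) stood highest over enterocyte-like cells, and *polo*, below that limit, had 29 UMIs in progenitor-like cells and 0 in enterocyte-like cells, while *RnrS* (-0.18) and *dup* (-0.02) were at about the same level in both.

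Enteroendocrine-like cells held few transcripts of mitotic cyclins, but not of every mitotic gene. The 5 mitotic cyclin, Cdk1, and string genes had 5 UMIs in 184 *esg[ts]/D30A* cells and 6 UMIs in 174 *esg[ts]/+* cells. *CycB*, *Cdk1*, *borr*, *fzy*, and *Mcm5* had 0 UMIs in enteroendocrine-like cells of both libraries. Those of *esg[ts]/+* held only 800277 UMIs in all. In *esg[ts]/+* progenitor-like cells without the shared barcodes, *CycB* and *Mcm5* had 0.885 CPM each, *borr* 1.77 CPM, and *fzy* 2.66 CPM. For these genes, 0 UMIs in *esg[ts]/+* enteroendocrine-like cells does not set a level below that of progenitor-like cells. *Bub1* had 17 UMIs (11.8 CPM) in *esg[ts]/D30A* enteroendocrine-like cells, against 14.6 CPM in progenitor-like cells, and 10 UMIs (12.5 CPM) in *esg[ts]/+* ones, against 9.63 CPM in progenitor-like cells. *E2f1* had 211 CPM in *esg[ts]/D30A* enteroendocrine-like cells and 172 CPM in *esg[ts]/+* ones, and was detected in 66.3% and 50% of the cells in the same order. As a sum, the 42 genes were 2.25-fold (2.07 to 2.44) higher in enteroendocrine-like than in enterocyte-like cells of *esg[ts]/D30A*, and 3.27-fold (2.92 to 3.64) higher in *esg[ts]/+*. Relative to the median of all genes, the log2 ratio of these sums was 0.36 in *esg[ts]/D30A* and 0.56 in *esg[ts]/+*. By single genes with at least 50 UMIs in *esg[ts]/D30A*, 13 of 17 genes were at least 1.5-fold higher against 57.5% of all genes, and 2 were at least 1.5-fold lower against 16.6%. In *esg[ts]/+* 10 of 11 were higher against 66.9% and 1 was lower against 12.8%.

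Dl-positive cells held more transcripts of the mitotic kinase and passenger group than Dl-negative cells did, in both libraries. For the mitotic cyclin, Cdk1, and string group, the interval lay above 0 in *esg[ts]/D30A* only. In *esg[ts]/D30A* the 5 mitotic cyclin, Cdk1, and string genes had 70.2 CPM in Dl-positive and 28.9 CPM in Dl-negative cells, 2.43-fold, with a log2 ratio of 1.28 (0.88 to 1.70). The kinase and passenger group had 92.98 CPM in Dl-positive and 32.1 CPM in Dl-negative cells, a log2 ratio of 1.53 (1.16 to 1.93). In *esg[ts]/+* the same groups had log2 ratios of 0.44 (-0.06 to 0.94) and 0.84 (0.40 to 1.28). The group of checkpoint and anaphase genes differed little between Dl-positive and Dl-negative cells, with log2 ratios of 0.05 (-0.24 to 0.34) in *esg[ts]/D30A* and 0.09 (-0.37 to 0.54) in *esg[ts]/+*. Replication genes had log2 ratios of 0.88 (0.65 to 1.12) in *esg[ts]/D30A* and 0.31 (-0.03 to 0.65) in *esg[ts]/+*. Over all 42 genes, the log2 ratio of the sums was 0.50 (0.41 to 0.59) in *esg[ts]/D30A* and 0.21 (0.08 to 0.33) in *esg[ts]/+*. With at least 2 UMIs required of Dl-positive cells and cells of 1 UMI left out, the *esg[ts]/+* value was 0.34.

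Among single genes in *esg[ts]/D30A*, the Aurora B kinase gene *aurB* had 66 UMIs (19.0 CPM) in Dl-positive and 7 UMIs (3.16 CPM) in Dl-negative cells, a log2 ratio of 2.59 (1.46 to 3.96). The log2 ratio was 2.23 (1.16 to 3.51) for *pav*, 2.17 (1.33 to 3.13) for *polo*, 1.59 (0.74 to 2.53) for *stg*, the Cdc25 phosphatase that opens mitosis, and 1.48 (0.59 to 2.48) for the condensin gene *SMC2*. It was -0.30 (-0.74 to 0.13) for *fzr*, an activator of the anaphase-promoting complex that acts at mitotic exit and in endocycles, and -0.01 (-0.18 to 0.17) for *E2f1*. Of 25 genes with at least 50 UMIs, 15 were at least 1.5-fold higher in Dl-positive cells and 0 lower, against 7.1% higher and 2.21% lower among all genes. A gene at low counts in Dl-negative cells could reach 50 UMIs only through Dl-positive cells, so this count is a description. In *esg[ts]/+*, *CycA* had a log2 ratio of 1.04 (0.25 to 1.86) and *Incenp* of 0.63 (0.06 to 1.21), and *dap* was lower in Dl-positive cells (-0.54, -1.06 to -0.03). There, 3 of 10 genes were at least 1.5-fold higher and 0 lower, against 4.18% higher and 3.2% lower among all genes. At low counts, *stg* in *esg[ts]/+* lay the other way than in *esg[ts]/D30A*. Without the barcodes that both libraries held, it had 12 UMIs (7.55 CPM) in Dl-positive and 21 UMIs (11.7 CPM) in Dl-negative cells.

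**Figure D2:**
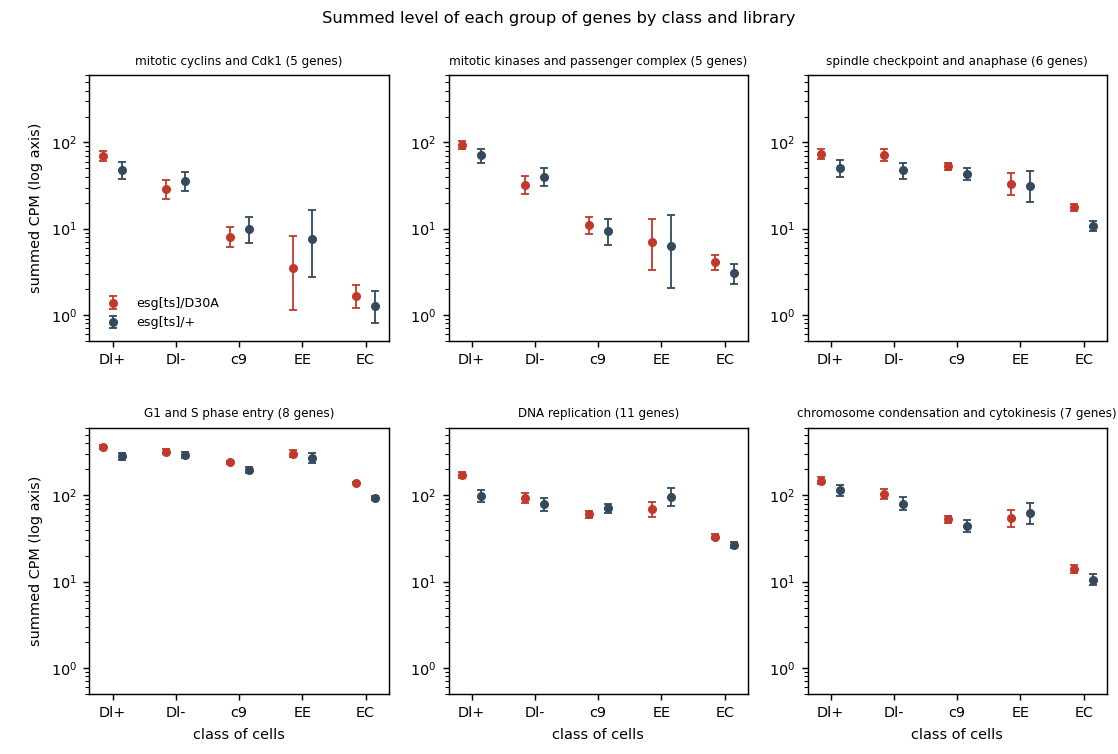
Summed CPM of each of the 6 gene groups (log axis) in Dl-positive (Dl+) and Dl-negative (Dl-) progenitor-like cells, cluster 9 (c9), enteroendocrine-like (EE) and enterocyte-like (EC) cells, with *esg[ts]/D30A* (red) left of *esg[ts]/+* (dark grey) and bars for 95% counting intervals. The mitotic cyclin and the kinase groups are lowest in EE and EC cells of both libraries, and the replication genes stand at 174 CPM in *esg[ts]/D30A* against 97.5 CPM in *esg[ts]/+* Dl-positive cells.

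Progenitor-like cells of *esg[ts]/D30A* held a higher share of cell cycle transcripts than those of *esg[ts]/+*, and replication genes differed most. The 42 genes had 4642 UMIs (816 CPM) in *esg[ts]/D30A* and 2116 UMIs (618 CPM) in *esg[ts]/+*, a log2 ratio of 0.40 (0.33 to 0.48). The median log2 ratio of all 5381 genes with at least 50 UMIs was 0.12, and relative to it the sum of the 42 genes stood at 0.28. The ratio of sums was 0.70 (0.51 to 0.90) for replication genes, 0.57 (0.31 to 0.84) for checkpoint and anaphase genes, 0.44 (0.25 to 0.63) for condensation and cytokinesis genes, 0.40 (0.10 to 0.69) for the mitotic cyclin group, 0.35 (0.10 to 0.61) for the kinase and passenger group, and 0.26 (0.15 to 0.37) for G1 and S phase entry. Of all 42 genes, 36 had a higher and 6 a lower CPM in *esg[ts]/D30A*. Among the 29 with at least 50 UMIs over both libraries, 12 were at least 1.5-fold higher and 0 lower, where 17.6% and 4.78% of all genes were. The other 13 genes, *CycB*, *CycB3*, *aurA*, *borr*, *fzy*, *pim*, *thr*, *CycE*, *Cdk2*, *Mcm2*, *Mcm5*, *dup*, and *barr*, had 10 to 45 UMIs. A gene at low counts in *esg[ts]/+* could reach 50 UMIs only through *esg[ts]/D30A*, so the count of 12 is a description.

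The difference was larger in Dl-positive than in Dl-negative cells, a contrast that was not tested. In Dl-positive cells the log2 ratio of the sums was 0.47 (0.37 to 0.57), and 11 of 25 genes were at least 1.5-fold higher and 0 lower, against 18.3% and 4.81% of all genes. In Dl-negative cells it was 0.18 (0.06 to 0.29), and 2 of 11 genes were higher and 1 lower, against 15.1% and 7.43%. Relative to the median of all genes these sums stood at 0.35 and 0.12. The gene counts are descriptions, because a gene low in *esg[ts]/+* could meet the minimum of UMIs only through *esg[ts]/D30A*. Only 11 genes met this minimum in Dl-negative cells, against 25 in Dl-positive cells, so the gene counts do not compare these sets. In cluster 9 the ratio was 0.19 (0.10 to 0.28), or 0.07 relative to all genes, and 0.08 (-0.02 to 0.18) without the barcodes that both libraries held, with 2 of 13 genes higher and 1 lower against 18.7% and 6.43% of all genes.

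The class border bears on these values. With progenitors defined by single transcripts (at least 1 UMI of *esg* and none of *pros*) in place of clusters, the log2 ratio of the sums was 0.08 (0.02 to 0.14) for progenitors, 0.17 (0.08 to 0.25) for Dl-positive cells, and -0.05 (-0.13 to 0.03) for Dl-negative cells, and 4 genes were at least 1.5-fold higher. Marker genes of other cells also differed. The 32 enterocyte markers summed to 5028.5 CPM in *esg[ts]/D30A* progenitor-like cells, with *gammaTry* at 0, and to 10553 CPM in *esg[ts]/+* ones, with *gammaTry* and *Jon66Cii* at 0, a log2 ratio of -1.07. The 14 progenitor markers summed to 7384 CPM in *esg[ts]/D30A* and 5873 CPM in *esg[ts]/+*, a log2 ratio of 0.33 (0.31 to 0.35), close to that of the cell cycle genes as a whole. The part of these differences in the genotype ratios was not tested. Germline and follicle markers summed to 2.99 CPM in *esg[ts]/D30A* and 3.21 CPM in *esg[ts]/+*, with 11 and 9 of 15 at 0 in the same order. Visceral muscle markers summed to 2.11 CPM in *esg[ts]/D30A* and 1.75 CPM in *esg[ts]/+*, with 5 and 8 of 11 at 0 in the same order.

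**Figure D3:**
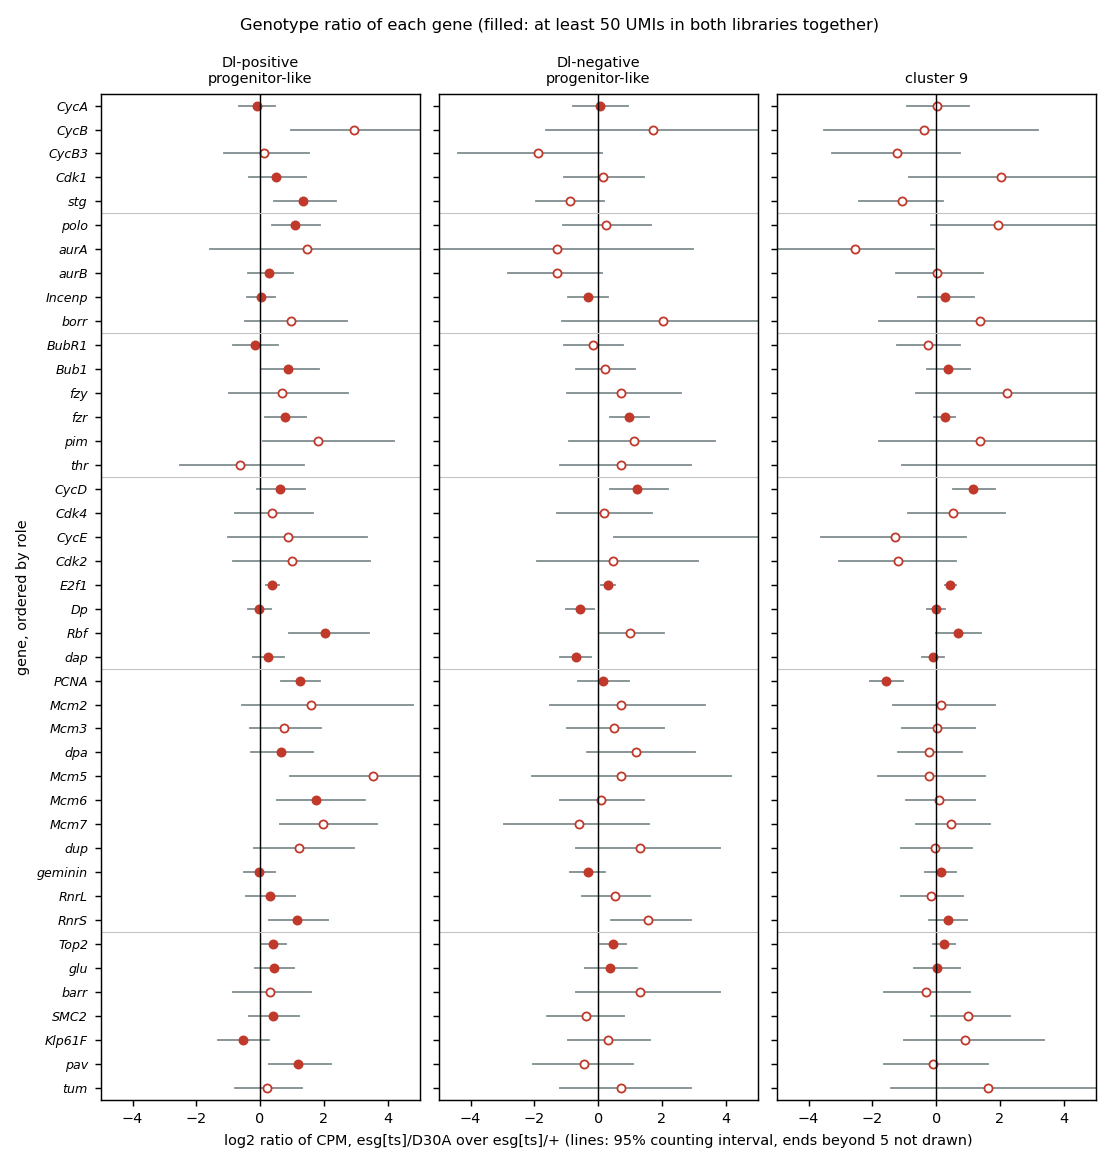
Genotype difference of each of the 42 genes, as the log2 of CPM in *esg[ts]/D30A* divided by CPM in *esg[ts]/+*, in Dl-positive cells, Dl-negative cells, and cluster 9, with lines for 95% counting intervals, filled points for genes with at least 50 UMIs, and no point where a library had 0 UMIs. *PCNA* stands at 1.25 in Dl-positive cells and at -1.56 in cluster 9, while *CycA*, *Incenp*, and *BubR1* lie near 0 in Dl-positive cells.

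Of the replication genes, *PCNA*, which encodes the sliding clamp of DNA polymerase (arm 2R, 20261754 to 20262883, minus strand), had 144 UMIs (41.5 CPM) in Dl-positive cells of *esg[ts]/D30A* and 28 UMIs (17.4 CPM) in those of *esg[ts]/+*. It was detected in 50 and 18 of these cells in the same order, and the log2 ratio was 1.25 (0.66 to 1.89). In Dl-negative cells it had 34 UMIs (15.4 CPM) in *esg[ts]/D30A* and 25 UMIs (13.8 CPM) in *esg[ts]/+*, a log2 ratio of 0.16 (-0.63 to 0.96). The single *esg[ts]/D30A* cell with most *PCNA* held 14 UMIs, or 9.72% of the *PCNA* UMIs of Dl-positive cells. *PCNA* was thus high in Dl-positive cells of *esg[ts]/D30A* and lower in the other 3 sets of progenitor-like cells.

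*Mcm7*, a subunit of the replicative helicase (arm 3L, 8891596 to 8894310, plus strand), had 46 UMIs (8.09 CPM) in *esg[ts]/D30A* progenitor-like cells and 10 UMIs (2.92 CPM) in *esg[ts]/+* ones, a log2 ratio of 1.47 (0.46 to 2.62). Of its *esg[ts]/D30A* UMIs, 42 lay in Dl-positive cells. The other helicase genes had log2 ratios of 1.10 (0.28 to 2.0) for *Mcm6*, 0.96 (0.17 to 1.81) for *dpa*, the fly Mcm4, and 0.77 (-0.06 to 1.66) for *Mcm3*. *Mcm5* had 29 UMIs in *esg[ts]/D30A* and 3 in *esg[ts]/+*, and *Mcm2* had 19 and 5 in the same order. Every MCM gene therefore had a higher CPM in *esg[ts]/D30A* progenitor-like cells, in 4 of 6 cases with at least 50 UMIs over both libraries.

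*RnrS* (arm 2R, 11983145 to 11985393, minus strand) had 91 UMIs (16 CPM) in *esg[ts]/D30A* progenitor-like cells and 21 UMIs (6.13 CPM) in *esg[ts]/+* ones, a log2 ratio of 1.38 (0.69 to 2.14), and was higher in Dl-positive (1.14, 0.27 to 2.13) and in Dl-negative cells (1.57, 0.41 to 2.91). Its partner *RnrL* had a log2 ratio of 0.49 (-0.11 to 1.11). *geminin*, which encodes the inhibitor of the origin licensing factor Dup, was at about the same level in both libraries, with 30.2 CPM in *esg[ts]/D30A* and 33.6 CPM in *esg[ts]/+*, a log2 ratio of -0.15 (-0.50 to 0.20). *dup* itself had 34 UMIs in *esg[ts]/D30A* and 8 in *esg[ts]/+*.

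Among genes of G1 and S phase entry, *Rbf*, which encodes the retinoblastoma family repressor of E2f1 (X, 797090 to 801479, minus strand), had 94 UMIs (16.5 CPM) in *esg[ts]/D30A* progenitor-like cells and 20 UMIs (5.84 CPM) in *esg[ts]/+* ones, a log2 ratio of 1.5 (0.79 to 2.28). The cyclin gene *CycD* had 113 UMIs (19.9 CPM) in *esg[ts]/D30A* and 36 UMIs (10.5 CPM) in *esg[ts]/+*, a log2 ratio of 0.92 (0.37 to 1.5). Both genes were also higher in *esg[ts]/D30A* outside the progenitor-like class. *CycD* had a log2 ratio of 1.16 (0.53 to 1.85) in cluster 9 and 1.35 (0.82 to 1.92) in enterocyte-like cells, and *Rbf* of 0.68 (0.00 to 1.41) and 1.26 (0.75 to 1.80). Without the barcodes that both libraries held, *CycD* had 1.21 (0.55 to 1.92) and 1.39 (0.77 to 2.06) in the same order. *Rbf* then had 0.69 (-0.03 to 1.45) and 0.99 (0.41 to 1.59). Of all genes with at least 50 UMIs, 18.7% in cluster 9 and 36.1% in enterocyte-like cells were at least 1.5-fold higher in *esg[ts]/D30A*. Marker genes differed there too. In enterocyte-like cells the 14 progenitor markers summed to 812 CPM in *esg[ts]/D30A* and 461 CPM in *esg[ts]/+*, a log2 ratio of 0.81, and the 17 enteroendocrine markers to 1010 CPM and 385 CPM in the same order, a log2 ratio of 1.39, with none at 0. In cluster 9 the log2 ratio was 0.37 for progenitor and -1.25 for enterocyte markers, and the part of these differences in the ratios of *CycD* and *Rbf* was not tested. *E2f1* had 1195 UMIs (210.2 CPM) in *esg[ts]/D30A* progenitor-like cells and 568 UMIs (165.8 CPM) in *esg[ts]/+* ones, a log2 ratio of 0.34 (0.20 to 0.49).

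The E2f1 partner gene *Dp* and the inhibitor gene *dap* did not share this direction. *Dp* had a log2 ratio of -0.03 (-0.37 to 0.33) in Dl-positive cells and -0.57 (-1.0 to -0.13) in Dl-negative cells. *dap* had 136 UMIs (39.1 CPM) in *esg[ts]/D30A* and 53 UMIs (32.9 CPM) in *esg[ts]/+* Dl-positive cells, and 65 UMIs (29.4 CPM) in *esg[ts]/D30A* and 87 UMIs (47.9 CPM) in *esg[ts]/+* Dl-negative cells. Its log2 ratio was 0.25 (-0.22 to 0.74) in the Dl-positive and -0.71 (-1.19 to -0.23) in the Dl-negative cells. *CycE*, the S phase cyclin, had 20 UMIs in *esg[ts]/D30A* and 3 in *esg[ts]/+* progenitor-like cells. In Dl-negative cells *CycE* had 8 UMIs in *esg[ts]/D30A* and 0 in *esg[ts]/+*, and the exact interval of the log2 ratio began at 0.49.

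Mitotic genes were uneven. *polo* (arm 3L, 20309654 to 20313466, plus strand) had 105 UMIs (18.5 CPM) in *esg[ts]/D30A* progenitor-like cells and 29 UMIs (8.47 CPM) in *esg[ts]/+* ones, a log2 ratio of 1.13 (0.52 to 1.77). It was detected in 18.1% and 6.50% of the cells in the same order, against 0.24% and 0% of enterocyte-like cells at median depths of 1365 and 1088 UMIs. *CycB*, a mitotic cyclin, had 37 UMIs in *esg[ts]/D30A* and 3 in *esg[ts]/+*, and the ratio of CPM had an interval of 2.35 to 37.7. *stg* was higher in *esg[ts]/D30A* in Dl-positive cells, with 66 UMIs (19.0 CPM) against 12 UMIs (7.45 CPM), and had 14 UMIs in *esg[ts]/D30A* against 21 in *esg[ts]/+* in Dl-negative cells.

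Several mitotic genes stood at about the same level in both libraries. *CycA* (arm 3L, 11826719 to 11833578, minus strand), the cyclin needed to enter mitosis, had 108 UMIs (19.0 CPM) in *esg[ts]/D30A* progenitor-like cells and 62 UMIs (18.1 CPM) in *esg[ts]/+* ones, a log2 ratio of 0.07 (-0.39 to 0.54). *Incenp* had 183 UMIs (32.2 CPM) in *esg[ts]/D30A* and 109 UMIs (31.8 CPM) in *esg[ts]/+*, a log2 ratio of 0.02 (-0.33 to 0.37). The ratio was 0.17 (-0.41 to 0.77) for *aurB*, and -0.09 (-0.63 to 0.47) for *BubR1*, a kinase of the spindle checkpoint. These intervals include differences in both directions. *CycB3* had 22 UMIs in *esg[ts]/D30A* and 17 in *esg[ts]/+*, and *aurA* had 7 in *esg[ts]/D30A* and 3 in *esg[ts]/+*. *Cdk1*, the kinase that mitotic cyclins activate, had 61 UMIs (10.7 CPM) in *esg[ts]/D30A* and 26 UMIs (7.59 CPM) in *esg[ts]/+*, a log2 ratio of 0.50 (-0.19 to 1.22).

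In the other groups, *fzr* had 184 UMIs (32.4 CPM) in *esg[ts]/D30A* and 62 UMIs (18.1 CPM) in *esg[ts]/+* progenitor-like cells, a log2 ratio of 0.84 (0.42 to 1.28), and was higher in both Dl-positive (0.77, 0.16 to 1.43) and Dl-negative cells (0.97, 0.37 to 1.59). The checkpoint kinase gene *Bub1* had a log2 ratio of 0.60 (0.00 to 1.23) and *pav* of 0.94 (0.22 to 1.72). *Top2*, which encodes the enzyme that untangles DNA strands, had 356 UMIs (62.6 CPM) in *esg[ts]/D30A* and 159 UMIs (46.4 CPM) in *esg[ts]/+*, a log2 ratio of 0.43 (0.16 to 0.71). The condensin gene *glu* had a ratio of 0.51 (0.04 to 1.00), *SMC2* of 0.31 (-0.30 to 0.95), and *Klp61F* of -0.15 (-0.80 to 0.52). The remaining genes had few UMIs. *pim*, the fly securin, had 31 UMIs in *esg[ts]/D30A* and 6 in *esg[ts]/+*, the passenger gene *borr* had 26 and 6, and *tum*, the partner of Pav, had 38 and 16 in the same order. *fzy*, which activates the anaphase-promoting complex in mitosis, had 24 UMIs in *esg[ts]/D30A* and 9 in *esg[ts]/+*, the separase gene *thr* had 15 and 9, and the condensin gene *barr* had 33 and 12. Of the kinases of G1 and S phase, *Cdk2* had 18 UMIs in *esg[ts]/D30A* and 6 in *esg[ts]/+*, and *Cdk4* had 36 and 17, a log2 ratio of 0.35 (-0.52 to 1.28). All of these genes except *thr* had more than 2 times as many UMIs in *esg[ts]/D30A*, whose progenitor-like cells held 5686185 UMIs in all, against 3425603 in *esg[ts]/+*.

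In cluster 9, *PCNA* ran the other way. It had 54 UMIs (7.59 CPM) in *esg[ts]/D30A* and 82 UMIs (22.4 CPM) in *esg[ts]/+*, a log2 ratio of -1.56 (-2.09 to -1.05). It was detected in 22 of 162 *esg[ts]/D30A* cells and in 26 of 167 *esg[ts]/+* cells, and the *esg[ts]/+* cell with most held 11 of the 82 UMIs. Without the barcodes that both libraries held, *PCNA* had 20 UMIs (4.01 CPM) in *esg[ts]/D30A* and 82 UMIs (22.5 CPM) in *esg[ts]/+*, a log2 ratio of -2.49 (-3.27 to -1.77). The 6 MCM genes had log2 ratios between -0.22 (*dpa* and *Mcm5*) and 0.47 (*Mcm7*) in cluster 9, and between -0.71 (*Mcm5*) and 0.29 (*Mcm6*) without the shared barcodes, where *Mcm7* had -0.45 (-1.87 to 0.97). *RnrS* had one of 0.37 with the shared barcodes and -0.26 (-0.95 to 0.44) without them. Of the 42 genes, 41 had a lower CPM in cluster 9 than in progenitor-like cells of *esg[ts]/D30A*, and in *esg[ts]/D30A* 23 of 29 genes were at least 1.5-fold higher in progenitor-like cells, against 13.3% of all genes, and 0 lower, against 5.73%. Only *fzr* was higher in cluster 9 of *esg[ts]/D30A*, at 36.8 CPM against 32.4 CPM in progenitor-like cells. In *esg[ts]/+*, 9 of 15 genes were at least 1.5-fold higher in progenitor-like cells and 2 lower, against 13.3% and 6.86% of all genes.

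In differentiated cells, differences between the libraries were close to those of all genes. In enterocyte-like cells the log2 ratio of the sums was 0.53 (0.46 to 0.60), but the median of all genes was 0.40, which leaves 0.13, and without the shared barcodes the ratio of the sums was 0.47 (0.40 to 0.55). There, 7 of 18 genes were at least 1.5-fold higher and 0 lower, against 36.1% and 1.47% of all genes. In enteroendocrine-like cells the ratio of the sums was -0.01 (-0.19 to 0.18). Of 4 genes with at least 50 UMIs, 0 were at least 1.5-fold higher and 1 was lower, *geminin* (-0.71, -1.47 to 0.06), against 12.2% and 9.84% of all genes.

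To look for single cells that held several mitotic transcripts, cells were counted in which at least 2 of the 7 genes *CycA*, *CycB*, *CycB3*, *Cdk1*, *polo*, *aurA*, and *aurB* had a UMI. There were 62 such cells among 337 progenitor-like cells of *esg[ts]/D30A* (18.4%, 14.4 to 23.0) and 25 among 369 of *esg[ts]/+* (6.78%, 4.43 to 9.84), a difference of 11.6 percentage points. With progenitors defined by single transcripts the shares were 11.1% in *esg[ts]/D30A* and 6.50% in *esg[ts]/+*, a difference of 4.59 points. Dl-positive cells held 51 of the 62 in *esg[ts]/D30A*, or 26.7% of Dl-positive cells (20.6 to 33.6), and 16 of the 25 in *esg[ts]/+*, or 10.7% of Dl-positive cells (6.26 to 16.9). The difference between the libraries in Dl-positive cells was 15.96 percentage points (7.64 to 23.8). This interval takes cells as independent, and cells are not replicates of a genotype. Among Dl-negative cells, 11 of 146 *esg[ts]/D30A* cells (7.53%) and 9 of 220 *esg[ts]/+* cells (4.09%) had at least 2, a difference of 3.44 points (-1.35 to 9.23). At least 5 of the 7 genes were found in 7 progenitor-like cells of *esg[ts]/D30A* and 1 of *esg[ts]/+*.

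In cluster 9 such cells were 16 of 162 *esg[ts]/D30A* cells (9.88%) and 7 of 167 *esg[ts]/+* cells (4.19%). They were 8 of 2482 enterocyte-like cells of *esg[ts]/D30A* (0.322%) and 3 of 2497 of *esg[ts]/+* (0.12%), at median depths of 1365 UMIs in *esg[ts]/D30A* and 1088 UMIs in *esg[ts]/+*. Enteroendocrine-like cells had 0 of 184 in *esg[ts]/D30A* (median 7557.5 UMIs), and 0 of 174 in *esg[ts]/+* (median 4382 UMIs). With 3 counts set for a 0, this allows a share of up to 1.63% in *esg[ts]/D30A* and 1.72% in *esg[ts]/+*, and the exact intervals reach 1.98% and 2.10%. Barcodes that both libraries held were 5 of the 16 *esg[ts]/D30A* cells in cluster 9 and 2 of the 8 enterocyte-like ones, and 0 of those in *esg[ts]/+*. Without them the shares in cluster 9 were 7.64% in *esg[ts]/D30A* and 4.43% in *esg[ts]/+*.

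**Figure D4:**
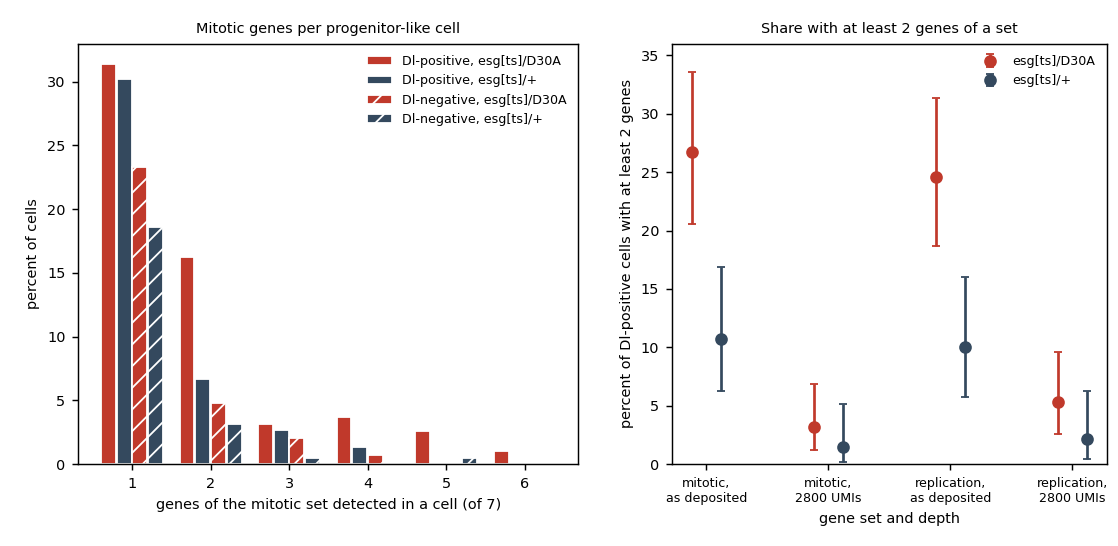
Left, percent of Dl-positive (plain bars) and Dl-negative (hatched bars) progenitor-like cells with 1 to 6 of the 7 mitotic genes detected, *esg[ts]/D30A* (red) left of *esg[ts]/+* (dark grey). Right, percent of Dl-positive cells with at least 2 genes of the mitotic or replication set, as deposited and after each cell was thinned to 2800 UMIs, with 95% intervals, where the shares of 26.7% and 10.7% become 3.19% and 1.46%.

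Depth differed with genotype, and the shares depended on it. Progenitor-like cells had a median of 15447 UMIs in *esg[ts]/D30A* and 9027 in *esg[ts]/+*. After each cell was thinned to 2800 UMIs, with 10 *esg[ts]/D30A* and 56 *esg[ts]/+* cells too shallow to use, 7 of 327 cells (2.14%) had at least 2 mitotic genes in *esg[ts]/D30A* and 3 of 313 (0.96%) in *esg[ts]/+*, each the median of 100 draws. The draws ran between 2 and 12 cells in *esg[ts]/D30A* and between 0 and 8 in *esg[ts]/+*, and the difference was 1.18 points (-0.95 to 3.48). The interval takes cells as independent and rests on the median draw, so it leaves out the spread of the draws. At equal depth it included 0, so no difference in the share of such cells could be shown, and none was tested. The CPM of the 7 genes, which does not depend on depth in this way, was 98.5 in Dl-positive cells of *esg[ts]/D30A* and 68.9 in those of *esg[ts]/+*, a log2 ratio of 0.51 (0.20 to 0.84). In Dl-negative cells it was 32.1 in *esg[ts]/D30A* and 37.5 in *esg[ts]/+*, a log2 ratio of -0.22 (-0.72 to 0.28).

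The same count for 9 replication genes (*PCNA*, *Mcm2*, *Mcm3*, *dpa*, *Mcm5*, *Mcm6*, *Mcm7*, *RnrL*, and *RnrS*) gave 67 of 337 progenitor-like cells in *esg[ts]/D30A* (19.9%, 15.8 to 24.5) and 28 of 369 in *esg[ts]/+* (7.59%, 5.10 to 10.8). At 2800 UMIs it gave 12 of 327 (3.67%) in *esg[ts]/D30A* and 4 of 313 (1.28%) in *esg[ts]/+*, a difference of 2.39 points (-0.11 to 5.14). The CPM of the 9 genes was 134 in Dl-positive cells of *esg[ts]/D30A* and 61.5 in those of *esg[ts]/+*, a log2 ratio of 1.13 (0.81 to 1.45). It was 0.55 (0.14 to 0.97) in Dl-negative cells and -0.36 (-0.63 to -0.09) in cluster 9, or -0.89 (-1.22 to -0.57) there without the shared barcodes. The replication set was found in cluster 9 in 38 of 162 *esg[ts]/D30A* cells (23.5%) and 18 of 167 *esg[ts]/+* cells (10.8%), and also in 55 enterocyte-like cells of *esg[ts]/D30A* (2.22%) and 33 of *esg[ts]/+* (1.32%). Without the shared barcodes these shares were 16.7% in *esg[ts]/D30A* and 11.4% in *esg[ts]/+* for cluster 9, and 1.62% in *esg[ts]/D30A* and 0.866% in *esg[ts]/+* for enterocyte-like cells. Cluster 9 was deeper than the progenitor-like class, and at 2800 UMIs the replication set was found in 1 of 161 *esg[ts]/D30A* cells (0.621%) and 2 of 152 *esg[ts]/+* cells (1.32%) of cluster 9, and the mitotic set in 0 of each. Cells that met both counts were 25 progenitor-like cells in *esg[ts]/D30A* (7.42%) and 7 in *esg[ts]/+* (1.90%).

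Within the 62 and 25 progenitor-like cells with at least 2 mitotic genes, other cell cycle genes could be read that had not been used to choose the cells. These cells were deeper than the other progenitor-like cells, with medians of 22375 and 14426 UMIs in *esg[ts]/D30A*, and of 13155 and 8687 UMIs in *esg[ts]/+*, so levels are given as CPM. *PCNA* had 70.2 CPM in cells with at least 2 mitotic genes and 17.4 CPM in other cells of *esg[ts]/D30A*, a log2 ratio of 2.01 (1.57 to 2.46). In *esg[ts]/+* it had 30.2 CPM and 13.7 CPM in the same order, a log2 ratio of 1.14 (0.03 to 2.12). In *esg[ts]/D30A* these cells held 26.3% of the UMIs of the class and 59.0% of its *PCNA* UMIs. *Mcm7* had a log2 ratio of 3.16 (2.15 to 4.28) in *esg[ts]/D30A* and 2.49 (0.22 to 4.56) in *esg[ts]/+*. Of the 35 genes not used to choose the cells, 21 had at least 50 UMIs in *esg[ts]/D30A*, of which 12 had an interval above 0 and 0 below 0, against 19.8% and 8.99% of all such genes. In *esg[ts]/+*, 9 had at least 50 UMIs, of which 3 had an interval above 0 and 0 below 0, against 15.9% and 7.06%. A gene at low counts in the other cells could reach 50 UMIs only through the chosen cells, so these counts are descriptions.

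In *esg[ts]/D30A*, *E2f1*, *fzr*, and *dap* were at about the same level in these cells and the others. The G1 and S phase entry gene *Dp* was higher in these cells of *esg[ts]/D30A*, at 72.2 CPM against 45.1 CPM, a log2 ratio of 0.68 (0.32 to 1.03). *E2f1* had 214 CPM in cells with at least 2 mitotic genes and 209 CPM in other cells of *esg[ts]/D30A*, and 151 CPM and 168 CPM in *esg[ts]/+*. In the same order, *fzr* had 32.1 CPM and 32.5 CPM in *esg[ts]/D30A*, and 13.7 CPM and 18.6 CPM in *esg[ts]/+*. *dap* had 36.1 CPM and 35.1 CPM in *esg[ts]/D30A*. In *esg[ts]/+* it was lower in the cells with at least 2 mitotic genes, at 22.0 CPM and 43.1 CPM, a log2 ratio of -0.97 (-2.22 to 0.05). Those *esg[ts]/+* cells held only 5 UMIs of *fzr* and 8 of *dap*. Markers of the progenitors themselves also differed. *Dl* was higher in cells with at least 2 mitotic genes, at 235 CPM (211 to 261) against 140 CPM (129 to 152) in *esg[ts]/D30A* and at 195 CPM (152 to 246) against 129 CPM (116 to 142) in *esg[ts]/+*. *esg* was lower, at 238 CPM (214 to 264) against 279 CPM (264 to 296) in *esg[ts]/D30A* and at 176 CPM (135 to 224) against 253 CPM (235 to 271) in *esg[ts]/+*. *E(spl)malpha-BFM*, a target of Notch, was also lower, at 443 CPM (410 to 478) against 594 CPM (571 to 618) in *esg[ts]/D30A* and at 439 CPM (374 to 513) against 559 CPM (533 to 586) in *esg[ts]/+*.

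**Figure D5:**
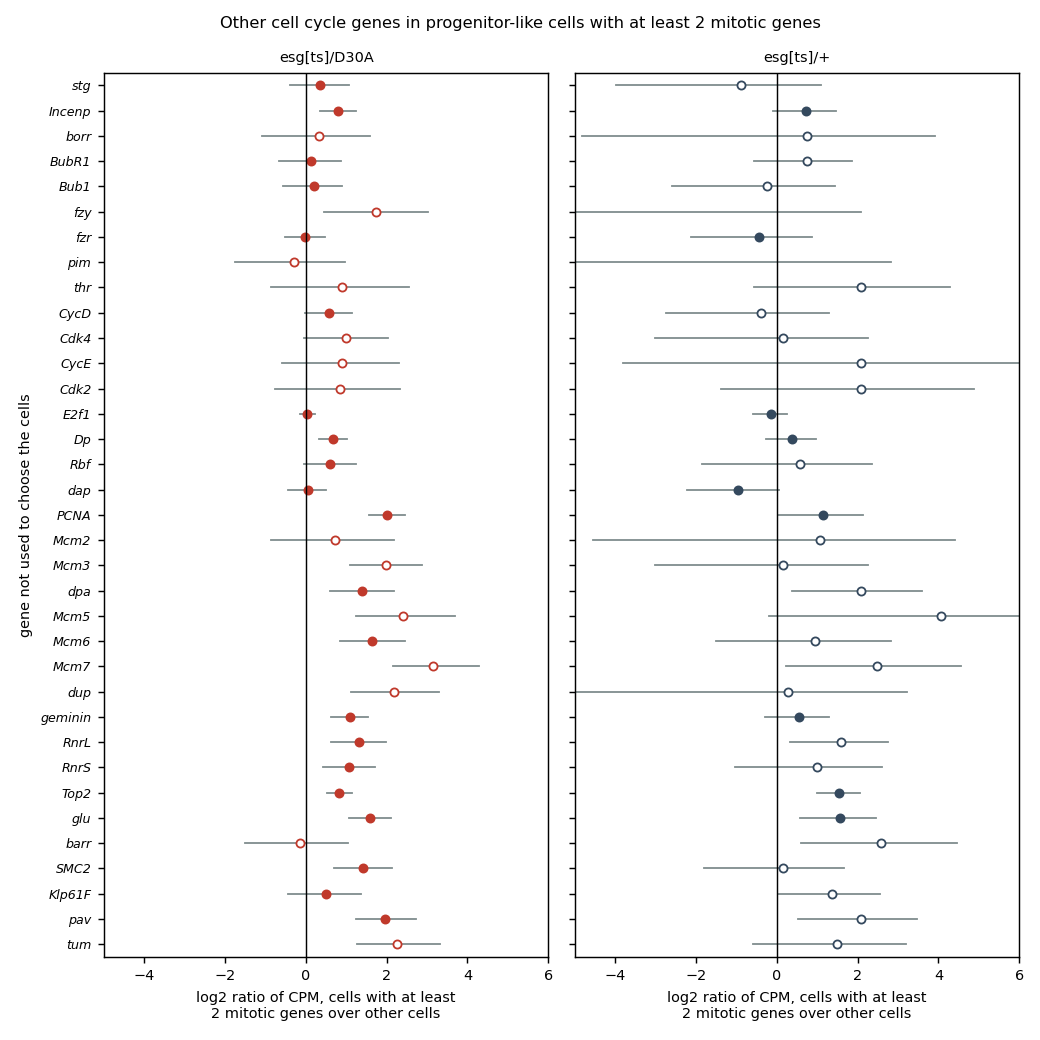
Log2 ratio of CPM in progenitor-like cells with at least 2 mitotic genes over other progenitor-like cells, for the 35 genes not used to choose the cells, in *esg[ts]/D30A* (left, red) and *esg[ts]/+* (right, dark grey), with 95% counting intervals and filled points for at least 50 UMIs. In *esg[ts]/D30A* the replication genes lie right of 0, with *PCNA* at 2.01 and *Mcm7* at 3.16, while *E2f1*, *fzr*, and *dap* lie near 0.

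Genes outside the 42 were ranked by the same comparison with the UMIs of both libraries added up, over the 2507 genes with at least 200 UMIs, as a description. *esg[ts]/D30A* gave more of the cells with at least 2 mitotic genes than of the others, so a fold of the added UMIs can lie outside the folds of the libraries. *Pen*, which encodes an importin alpha of nuclear import, was highest at 12.2-fold (9.68 to 15.6), with 160 CPM in cells with at least 2 mitotic genes and 13.1 CPM in other cells. It was followed by the cuticle protein gene *Cpr51A* (7.08-fold), *DIP-alpha* (3.69-fold), the tetraspanin gene *Tsp42Ee* (3.21-fold), *dUTPase* (2.93-fold), which keeps uracil out of new DNA, *CG15083* (2.87-fold), *babos* (2.77-fold), *hdly* (2.70-fold), *Set* (2.60-fold), and the heterochromatin gene *HP4* (2.59-fold). All 10 were higher in these cells in each library taken alone, which is no separate check, because the ranking used the same UMIs. The log2 ratio of *Pen* was 4.01 (3.56 to 4.5) in *esg[ts]/D30A* and 2.50 (1.82 to 3.17) in *esg[ts]/+*, that of *Cpr51A* was 3.14 and 3.04, and that of *Tsp42Ee* was 1.39 and 1.60 in the same order.

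A wider list held 104 other cell cycle genes. In progenitor-like cells 59 of them had at least 50 UMIs, of which 11 were at least 1.5-fold higher in *esg[ts]/D30A*, a share near the 17.6% of all genes, and 0 were lower, against 4.78%. The median log2 ratio of the 59 genes was 0.30, against 0.12 over all genes. The 3 highest were *RPA2* (1.66, 1.01 to 2.38) and *RpA-70* (1.35, 0.86 to 1.88), subunits of the protein that coats single-stranded DNA, and the growth regulator gene *Myc* (1.27, 1.18 to 1.36). *RPA2* had 121 UMIs in *esg[ts]/D30A* and 23 in *esg[ts]/+*, *RpA-70* had 174 and 41, and *Myc* had 5304 and 1327. The 3 lowest were the cohesin genes *SA* (-0.50, -1.36 to 0.37) and *SMC1* (-0.29, -0.62 to 0.04), and *endos* (-0.31, -0.52 to -0.10), whose product inhibits the phosphatase that opposes Cdk1. Genes of origins, polymerases, and the clamp loader had 275 CPM in *esg[ts]/D30A* and 196 CPM in *esg[ts]/+*, a log2 ratio of 0.49 (0.36 to 0.62), and kinetochore, centrosome, and spindle genes one of 0.30 (0.20 to 0.39).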

How the data were processed

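Single-cell RNA sequencing (10x Chromium, 3' ends) gave the deposited UMI counts, which the authors made with Cell Ranger (3.0 in the submitters' notes, 3.0.2 in the matrix headers) and left unnormalized. The submitters' notes also name Seurat 3.1.1. The aligner's genome build is not given in the sources used here. The members and lists were chosen with earlier results of these data known.

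The filter left out barcodes under 200 detected genes or over 25% mitochondrial UMIs, which were 2021 in *esg[ts]/D30A* and 144 in *esg[ts]/+*. Scrublet scores (scanpy 1.11.5) ranked barcodes, and an expected 0.8% per 1000 barcodes were removed as doublets (148 and 134 in the same order), because Scrublet's own threshold called 0. Integration and clustering used 2000 variable genes, none of them cell cycle genes, 30 dimensions, and a resolution of 0.8 (Seurat 5.3.0 under R 4.3.3, and Matrix 1.6.5). A cluster took a class name with at least 3 markers in at least 10% of its cells at 1.5-fold or more, unless another class had more markers than its own among the 10 leading genes, or unless those 10 had no marker of its own in a cluster whose cells had median UMIs below the median over 3 of their library.

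UMIs were summed per class and library and given as CPM with exact Poisson intervals, ratios with exact intervals, shares with exact Clopper-Pearson intervals, and differences of shares with Newcombe intervals, all at 95%. Gene counts use at least 50 UMIs over both sides and 1.5-fold. A gene can pass this minimum through the side where it is high, so such counts are descriptions. A count of 0 was set to 3 for limits of shares. Cells were thinned by random draws without replacement. All 42 genes were named, with full values mainly for those with at least 50 UMIs, and 3 highest and 3 lowest of the other cell cycle genes. The cluster naming and the genes *imd*, *esg*, *N*, and *E(spl)malpha-BFM* were set after values had been seen. The ratio computation was tested on simulated data. Alternatives were resolutions of 0.4 and 1.2, no integration, no doublet removal, 500 genes and 10% mitochondrial UMIs, classes from single transcripts, values relative to all genes, 2-fold, 20 UMIs, the mean over cells, 2 UMIs of *Dl*, 3 genes, 2 UMIs per gene, *Bub1* and *BubR1* added, and thinning. Cluster 9 counted as progenitor-like and leaving out shared barcodes were added after seeing the data. No sequences were printed. Figures were drawn with matplotlib 3.10.9, and intervals came from scipy 1.17.1, with pandas 2.3.3 and numpy 2.4.6 under Python 3.11.15.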

Additional observations from a re-analysis of the deposited data

Results flagged for a closer look

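*PCNA* differed in opposite directions between the libraries in different sets of cells. In Dl-positive progenitor-like cells its log2 ratio of *esg[ts]/D30A* over *esg[ts]/+* was 1.25. In cluster 9 it was -1.56, or -2.49 without the barcodes that both libraries held. None of the counting intervals included 0, but they treat UMIs as independent and leave out differences between cells. The difference between the ratios was not tested, since each genotype had 1 library.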

How the results depend on the processing

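Each genotype had 1 library, so intervals cover counting error only and no result has a test or a replicate check. No paired analysis was possible because each genotype had 1 library, and none could be left out. Depth limited most genes of mitosis and replication to fewer than 100 UMIs per class in *esg[ts]/+*, and differences smaller than their counting intervals could not be detected. Over 17 settings, 121 recomputed values stayed within their counting interval or, for counts of genes, within 1.5 times the count, 70 moved further, and 6 changed sign, and the cause was not tested for any of them.

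The log2 ratio of the sums between genotypes was 0.40 in progenitor-like, 0.47 in Dl-positive, 0.18 in Dl-negative, -0.01 in enteroendocrine-like, and 0.53 in enterocyte-like cells. For progenitor-like and Dl-positive cells it was 0.29 and 0.33 at a resolution of 0.4, 0.30 and 0.34 with no integration, and 0.29 and 0.33 with cluster 9 counted as progenitor-like, a setting added after seeing the data. Relative to all genes it was 0.28 in progenitor-like, 0.35 in Dl-positive, 0.0394 in enteroendocrine-like, and 0.13 in enterocyte-like cells. With classes from single transcripts it was 0.0805 in progenitors, 0.17 in Dl-positive, -0.0509 in Dl-negative, 0.22 in enteroendocrine, and 0.35 in enterocyte cells, 4 genes in place of 12 were at least 1.5-fold higher in progenitors, and at least 2 mitotic genes were found in 11.1% of *esg[ts]/D30A* and 6.50% of *esg[ts]/+* progenitors. For Dl-positive cells it was 0.36 with at least 2 UMIs of *Dl*. In enteroendocrine-like cells it was 0.0345 with no doublet removal, 0.0840 as a mean over cells, and 0.00075 without the barcodes that both libraries held, also added after seeing the data. The count of 12 genes was 6 at 2-fold and 22 with at least 20 UMIs.

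Progenitor-like over enterocyte-like cells, the log2 ratio of sums was 1.96 in *esg[ts]/D30A* and 2.09 in *esg[ts]/+*. In the same order it was 1.47 and 1.74 at a resolution of 0.4, 1.502 and 1.70 with no integration, 1.37 and 1.63 with single transcripts, 1.66 and 1.65 relative to all genes, 1.51 and 1.76 with cluster 9 counted, 2.22 and 2.35 with 500 genes and 10% mitochondrial UMIs, and 1.52 and 1.68 as a mean over cells, and in *esg[ts]/D30A* 1.89 with no doublet removal. Enteroendocrine-like over enterocyte-like cells, it was 1.17 in *esg[ts]/D30A* and 1.71 in *esg[ts]/+*, with 0.78 and 0.91 from single transcripts, 0.36 and 0.56 relative to all genes, 1.41 and 1.99 with 500 genes and 10%, and 0.79 and 1.203 as a mean over cells. Dl-positive over Dl-negative cells, it was 0.50 in *esg[ts]/D30A*, with 0.73 from single transcripts, and 0.21 in *esg[ts]/+*, with 0.51 from single transcripts, 0.37 at a resolution of 0.4 and with cluster 9 counted, 0.39 with no integration, and 0.34 with 2 UMIs of *Dl*.

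The share of progenitor-like cells with at least 2 mitotic genes was 18.4% in *esg[ts]/D30A* and 6.78% in *esg[ts]/+*. In the same order it was 7.12% and 2.17% for at least 3 genes, 4.45% and 0.542% with 2 UMIs for each gene, 32.3% and 13.8% with *Bub1* and *BubR1* added, and 2.14% and 0.958% after thinning, and 12.9% in *esg[ts]/D30A* at a resolution of 1.2. For Dl-positive cells these shares were 10.5% and 4.03% for at least 3 genes, 7.85% and 0.671% with 2 UMIs, 42.4% and 19.5% with the added genes, and 3.19% and 1.46% after thinning. For at least 2 replication genes, 19.9% and 7.59% became 10.1% and 1.90% for at least 3 genes, 7.12% and 0.813% with 2 UMIs, and 3.67% and 1.28% after thinning, and 13.1% in *esg[ts]/D30A* at a resolution of 1.2. In each of these settings the *esg[ts]/D30A* share was the higher, but only thinning gave cells of both libraries the same depth. After thinning, the interval of the difference included 0 for mitotic genes in progenitor-like (-0.95 to 3.48 points) and Dl-positive cells (-2.35 to 5.48). It also did for replication genes (-0.11 to 5.14). At 650 UMIs, at least 2 mitotic genes were found in 1 of 337 *esg[ts]/D30A* and 0 of 361 *esg[ts]/+* progenitor-like cells. Dl-positive cells had 0 of 191 and 0 of 149, too few to compare.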
